A study of Mus musculus with 38 samples.

Results

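Slc5a1, Slc5a2, Slc8a1, Atp1b1, Slc2a1 and Slc2a4 encode carriers that move sodium or glucose across the cell membrane of heart cells, or, for Atp1b1, a subunit of the pump that sets the sodium gradient. They were taken as the 6 of the 35682 genes in the count table whose Ensembl identifier carries one of these symbols in the GRCm39 annotation. The study profiled 38 libraries by 3′ RNA sequencing from 3 cell populations of the mouse heart: isolated cardiomyocytes, sorted ECs (endothelial cells) and sorted fibroblasts. Male C57BL/6 mice received either vehicle containing DMSO (Sham and Control-AMI) or empagliflozin (EMPA), an inhibitor of the renal glucose carrier SGLT2, at 10 mg/kg per day by mouth for 6 weeks (EMPA–Pre-AMI). The Control-AMI and EMPA–Pre-AMI hearts then had acute myocardial infarction (AMI), 30 min of coronary ligation followed by 2 h of reperfusion, and the Sham hearts had the open-chest operation alone. EMPA was given only to mice with AMI. Each library pooled 2 hearts. Cardiomyocytes came from the pellet of a digested heart and ECs and fibroblasts from its supernatant, so the populations shared hearts. The labels do not state which libraries shared hearts. Some EC and fibroblast libraries of the same group carry adjacent sample numbers, and whether these came from the same hearts is not given. The ischemic part of the heart was digested with collagenase. Cardiomyocytes were pelleted at low speed, ECs were sorted as CD45- CD31+ cells and fibroblasts as CD45- CD31- CD90+ cells. There were 4 libraries of Sham cardiomyocytes, 5 of Control-AMI and 4 of EMPA–Pre-AMI cardiomyocytes. The same groups of ECs counted 4, 4 and 5 libraries, and each group of fibroblasts counted 4.

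Glucose enters heart cells mainly through facilitative carriers of the GLUT family. GLUT1 (Slc2a1) sits in the membrane and serves basal uptake, whereas GLUT4 (Slc2a4) is held in vesicles and moves to the surface under insulin or contraction. The SGLT carriers of the SLC5 family instead take up glucose together with sodium. SGLT2 (Slc5a2) is the carrier of the kidney tubule that EMPA blocks, and SGLT1 (Slc5a1) is known from the gut and kidney. Sodium is pumped out of the cell by the sodium-potassium ATPase, of which Atp1b1 is the β1 subunit, and the sodium-calcium exchanger NCX1 (Slc8a1) spends the sodium gradient to remove calcium. Sodium handling of the cardiomyocyte has been proposed as a cardiac target of EMPA, which is why these carriers were compared across populations and conditions.

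Libraries held between 1352522 and 4509290 counts. The 13 genes encoded by mitochondrial DNA took 46.6% to 66.01% of the counts of a cardiomyocyte library, 4.52% to 14.6% of an EC library and 3.47% to 12.5% of a fibroblast library. Levels are given as CPM, the counts relative to a library total that was scaled by a TMM factor, either from the fit of all 38 libraries, for comparisons between populations, or from the fit of 1 population, for comparisons between conditions. A gene was called at a false discovery rate (FDR) below 0.05 by edgeR's quasi-likelihood test, adjusted over all genes tested. These values measure only the spread between pools of hearts of 1 group. The markers of the labelled population were high in its own libraries. The 7 cardiomyocyte markers summed to between 31073 and 70912 CPM (fit of all libraries) in cardiomyocytes, against 98.9 to 625 CPM in ECs. Cardiomyocytes were pelleted rather than sorted, and their libraries also held 6 endothelial markers at 1014 to 2381 CPM and 6 fibroblast markers at 843 to 4011 CPM on the same scale.

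The SGLT genes were at or near 0 in every population. Slc5a1 (chr5:33261563-33320214, plus strand) had 4 counts in all of the cardiomyocytes, namely 2 in 1 Sham library, 1 in a Control-AMI library and 1 in an EMPA–Pre-AMI library. ECs held 3 counts of Slc5a1, 1 in a Sham library and 2 in an EMPA–Pre-AMI library. Fibroblasts held 0 of 27865905 counts, which allows a level of up to 0.108 CPM over the population. Limits of this kind are relative to library totals without the TMM factor, unlike the other CPM values given here. Slc5a2 (chr7:127864829-127871602, plus strand) had 0 counts in cardiomyocytes and 0 in ECs, which allows up to 0.0745 CPM and 0.129 CPM, and 2 counts in fibroblasts, both in Control-AMI libraries. Without the TMM factor, a count of 0 in 1 library allows 0.665 to 1.48 CPM for cardiomyocytes. For ECs it allows 1.37 to 2.22 CPM and for fibroblasts 1.063 to 1.54 CPM. These limits cover counting error only. They are not on the scale of the fits and do not rank the populations. In the fit of all libraries, 1 count of Slc5a1 was already 1.13 CPM in cardiomyocyte EMPA–Pre-AMI replicate 1. No group had more than 3 counts of either gene, so neither was tested and no change with AMI or EMPA was detectable at this depth. Slc5a2 shares 1068 bases with Rusf1 on the other strand, and Slc5a1 shares 460 bases with the pseudogene Gm15936 on its own strand, so a few counts could belong to either partner.

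The rest of the SLC5 family was sparse as well. Of its 13 genes, 3 had no count in any library, 9 had at most 10 counts in total, and 2 passed the filter on low counts over all libraries. Slc5a3, a sodium-coupled inositol carrier, averaged 17.7 CPM in cardiomyocytes, 34.7 CPM in ECs and 33.1 CPM in fibroblasts (fit of all libraries). Slc5a6, a sodium-coupled vitamin carrier, averaged 6.01, 2.49 and 2.45 CPM. Neither was called between Sham populations. Within each population only 1 SLC5 gene, Slc5a3, passed the filter, and it was not called between conditions. Slc5a6 was not tested between conditions. Slc5a3 was 10.9 ± 2.48 CPM in Control-AMI cardiomyocytes and 4.25 CPM in EMPA–Pre-AMI cardiomyocytes (fit of the population), with groups that did not overlap, as for 5.97% of all genes tested there, and an FDR of 0.0592.

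The promoters of the other 4 members are shown because 3 of these genes shared their distribution over the populations and the fourth, Slc2a1, was the member that changed with AMI. Each is the stretch of 200 bases that ends 51 bases before the annotated start, from the GRCm39 genome, 5′ to 3′ on the strand of the gene. Capitals mark matches to the motifs searched on both strands, ACGTG (the core bound by hypoxia-inducible factors), GGGCGG (the GC box) and TATAAA (the TATA box).
Slc8a1 (chr17:82045942-82046141, minus strand): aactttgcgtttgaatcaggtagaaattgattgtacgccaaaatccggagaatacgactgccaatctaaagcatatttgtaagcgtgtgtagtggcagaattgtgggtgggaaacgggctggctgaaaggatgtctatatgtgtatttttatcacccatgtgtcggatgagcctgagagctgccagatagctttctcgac
Atp1b1 (chr1:164285975-164286174, minus strand): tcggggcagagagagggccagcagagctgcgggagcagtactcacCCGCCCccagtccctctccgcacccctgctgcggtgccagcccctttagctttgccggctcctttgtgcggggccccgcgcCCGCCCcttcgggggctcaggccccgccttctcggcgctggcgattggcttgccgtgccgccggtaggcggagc
Slc2a4 (chr11:69839112-69839311, minus strand): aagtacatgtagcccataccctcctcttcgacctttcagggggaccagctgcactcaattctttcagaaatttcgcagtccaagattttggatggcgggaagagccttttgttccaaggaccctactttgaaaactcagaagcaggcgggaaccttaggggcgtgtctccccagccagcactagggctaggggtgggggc
Slc2a1 (chr4:118965658-118965857, plus strand): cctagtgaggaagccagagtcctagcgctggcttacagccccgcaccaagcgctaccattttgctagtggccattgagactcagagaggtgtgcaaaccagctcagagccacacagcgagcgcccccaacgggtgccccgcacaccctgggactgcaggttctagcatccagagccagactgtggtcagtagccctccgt
The Atp1b1 stretch was 73.5% G or C and held 2 GC boxes. Both lay on the strand opposite to the gene and so are printed as their reverse complement. This stretch overlaps exons of the noncoding genes Gm32391 and Gm70492. The Slc8a1, Slc2a4 and Slc2a1 stretches were 44.5%, 54% and 61% G or C and held none of the 3 motifs. Over 21523 promoters in the same window, 12.9% held ACGTG, 24.7% held GGGCGG and 8.27% held TATAAA, so the Slc2a1 stretch, which lacks ACGTG, was like most promoters in this respect.

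Slc8a1 (chr17:81680534-82045891, minus strand), Atp1b1 (chr1:164264678-164285957, minus strand) and Slc2a4 (chr11:69831006-69839070, minus strand) were highest in cardiomyocytes. Atp1b1 shares 620 bases with Nme7 and Slc2a4 shares 1427 bases with Ybx2, each on the other strand, and whether the counting used strand is not given in the sources used here. In Sham hearts, Slc8a1 was 141.8 ± 19.7 CPM in cardiomyocytes (SD, n = 4), 25.9 ± 4.13 CPM in fibroblasts (n = 4) and 6.99 ± 0.984 CPM in ECs (n = 4), all on the scale of the fit of all libraries. Atp1b1 was 531.7 ± 53.4 CPM in cardiomyocytes, 32.7 ± 13.5 CPM in fibroblasts and 14.1 ± 1.53 CPM in ECs. Slc2a4 was 167.3 ± 27.4 CPM in cardiomyocytes, 5.39 ± 3.00 CPM in fibroblasts and 2.02 ± 1.37 CPM in ECs. For all 3 genes every cardiomyocyte library lay above every EC and fibroblast library, in each condition. These are bulk samples, so more cells of a type in a library and more RNA of a gene per cell cannot be told apart.

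**Figure D1:**
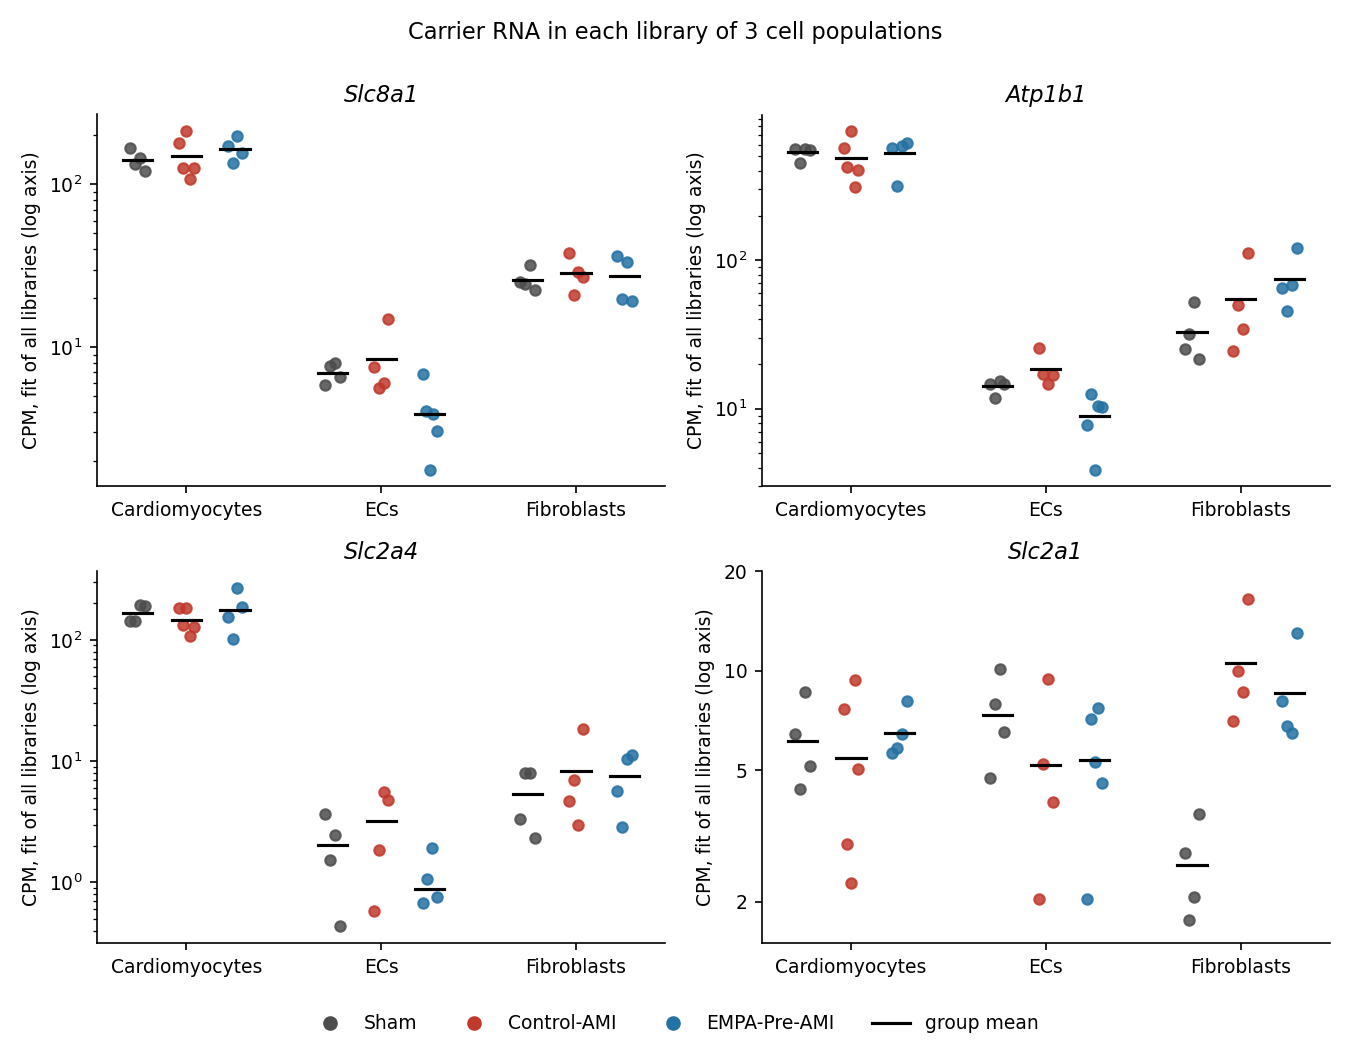
Level of Slc8a1, Atp1b1, Slc2a1 and Slc2a4 in each of the 38 libraries, in CPM from the fit of all libraries on a log axis, by population and condition; bars mark group means. The EMPA–Pre-AMI EC library with 0 counts of Slc2a4 cannot be drawn on this axis. Slc8a1, Atp1b1 and Slc2a4 are highest in cardiomyocytes, whereas the lowest group of Slc2a1 is Sham fibroblasts, with a mean of 2.58 CPM.

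The differences between Sham populations were tested in the fit of all libraries, which treated libraries of different populations as independent although they shared hearts. Against ECs, cardiomyocytes were higher by 4.32 ± 0.30 (SE) on the log2 scale for Slc8a1 (FDR 8.35e-16), by 5.23 ± 0.41 for Atp1b1 (FDR 2.71e-13) and by 6.31 ± 0.55 for Slc2a4 (FDR 9.19e-12). Slc2a1 did not pass, at 6.14 CPM in cardiomyocytes and 7.33 CPM in ECs (log2 difference -0.28 ± 0.43, FDR 0.606). Thus 3 of 4 members tested were called, where 52.9% of all 12085 genes tested were called in this comparison and 52.9% had groups that did not overlap. Against fibroblasts, cardiomyocytes were higher for all 4, by 2.45 ± 0.26 for Slc8a1 (FDR 1.92e-10), 4.03 ± 0.38 for Atp1b1 (FDR 3.42e-11), 4.98 ± 0.48 for Slc2a4 (FDR 1.39e-10) and 1.19 ± 0.46 for Slc2a1 (FDR 0.0302). Here 47.3% of all genes were called and 45.6% did not overlap. The direction for Slc2a1 depended on the scaling between populations. The TMM factors of this fit were 0.406 to 0.547 in Sham cardiomyocytes and 1.54 to 1.60 in Sham fibroblasts. On the separate scales of the population fits, the Slc2a1 means had the opposite order, 2.70 CPM in Sham cardiomyocytes and 3.82 CPM in Sham fibroblasts. The Slc2a1 call was lost without cardiomyocyte Sham replicate 1 (FDR 0.0598) or 3 (FDR 0.104), without fibroblast Sham replicate 2 (FDR 0.0798) or 3 (FDR 0.07), and without the filter on low counts (FDR 0.0688).

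ECs and fibroblasts also differed. In Sham hearts, ECs were lower than fibroblasts by 1.87 ± 0.29 on the log2 scale for Slc8a1 (log2 difference -1.87, FDR 1.04e-06) and by 1.20 ± 0.37 for Atp1b1 (log2 difference -1.20, FDR 0.00942), and were higher by 1.48 ± 0.43 for Slc2a1 (FDR 0.00525). Slc2a4 gave -1.33 ± 0.62 and did not pass (FDR 0.0898). Of all genes tested, 37.7% were called and 35.5% did not overlap, beside 3 of 4 members for each. Without fibroblast Sham replicate 3, the library with the highest Atp1b1, the Atp1b1 difference was -0.89 with an FDR of 0.0688. Slc2a4 was called by DESeq2 (FDR 0.0338) and without fibroblast Sham replicate 4 (log2 difference -1.60, FDR 0.0457).

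The order of the levels over the 9 groups differed between the members. For Slc8a1 the 3 cardiomyocyte groups came first (141.8 to 165.4 CPM, fit of all libraries), then the 3 fibroblast groups (25.9 to 28.7 CPM) and the 3 EC groups (3.91 to 8.49 CPM). For Atp1b1 the cardiomyocyte groups spanned 490.5 to 531.7 CPM, the fibroblast groups 32.7 to 74.9 CPM and the EC groups 8.999 to 18.5 CPM, and for Slc2a4 these spans were 146.7 to 177.9, 5.39 to 8.26 and 0.887 to 3.20 CPM. Neighbours within a population differed by less than the larger of their SDs, other than Sham and EMPA–Pre-AMI ECs for Slc8a1 and Atp1b1. For Slc2a1 no population came first. Control-AMI fibroblasts were highest (10.5 ± 4.13 CPM), followed by EMPA–Pre-AMI fibroblasts (8.59 ± 3.00 CPM), Sham ECs (7.33 ± 2.27 CPM), the 3 cardiomyocyte groups (5.47 to 6.50 CPM), EMPA–Pre-AMI ECs (5.36 ± 2.26 CPM), Control-AMI ECs (5.17 ± 3.13 CPM) and Sham fibroblasts (2.58 ± 0.858 CPM). Each of these neighbours differed from the next by less than the larger of their SDs.

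The genes with the most similar pattern over the 38 libraries followed the same division, and the correlations are given as a description because the libraries share their population. For Slc8a1 these were Ndrg2 (Pearson r of log2 CPM 0.979), Reep5 (0.976) and Vldlr (0.975). For Atp1b1 they were Casq2, the calcium-binding protein of the sarcoplasmic reticulum (0.98), Cdh2, the cadherin of the intercalated disc (0.976), and Oxct1, an enzyme of ketone use (0.973). For Slc2a4 they were Cdh2 (0.978), Casq2 (0.978) and Atp5mj (0.973). Slc2a1 had no close neighbour, and the highest correlations were with Utp4 (0.603), Wdr1 (0.596) and Hnrnpab (0.586).

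Slc2a1 (chr4:118965908-118996365, plus strand) in fibroblasts was the only member called between conditions within a population. On the scale of the fibroblast fit, the 4 Sham libraries held 4.13, 2.64, 3.04 and 5.46 CPM. The 4 Control-AMI libraries held 10.3, 14.6, 12.6 and 23.9 CPM, and the 4 EMPA–Pre-AMI libraries held 11.9, 10.0, 9.49 and 18.96 CPM. Every library with AMI lay above every Sham library, whereas the AMI groups with and without EMPA overlapped. The mean rose from 3.82 ± 1.27 CPM in Sham to 15.4 ± 5.94 CPM in Control-AMI, a log2 fold change of 1.98 ± 0.38 (SE, FDR 0.00679). In EMPA–Pre-AMI it was 12.6 ± 4.37 CPM, a log2 fold change of 1.69 ± 0.39 against Sham (FDR 0.0185). The difference between EMPA–Pre-AMI and Control-AMI was -0.28 ± 0.35 (FDR 1).

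Slc2a1 was thus 1 of 4 members called in Control-AMI fibroblasts, where 4.16% of all 10691 genes tested were called and 12.3% had groups that did not overlap. In EMPA–Pre-AMI against Sham fibroblasts it was again 1 of 4, against 5.11% called and 11.8% not overlapping, and both comparisons share the Sham libraries. Between EMPA–Pre-AMI and Control-AMI fibroblasts no gene of the table was called (0%), with 169 genes and none of the members at an unadjusted p under 0.05, and DESeq2 called none either. Leaving out any 1 library kept the Control-AMI call (FDR 0.00843 to 0.0295). The EMPA–Pre-AMI call was lost without Sham replicate 2 (FDR 0.0629), Sham replicate 3 (FDR 0.0557) or EMPA–Pre-AMI replicate 4 (FDR 0.0671).

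The sample-sheet numbers in the labels fall into 4 ascending lists, over which the groups are spread unevenly. In list 1, Sham replicates 2, 3 and 4 held 2.64, 3.04 and 5.46 CPM of Slc2a1, Control-AMI replicate 4 held 23.9 CPM and EMPA–Pre-AMI replicate 4 held 18.96 CPM. In list 4, Sham replicate 1 held 4.13 CPM and Control-AMI replicates 1, 2 and 3 held 10.3, 14.6 and 12.6 CPM, and EMPA–Pre-AMI replicates 2 and 3 held 10.0 and 9.49 CPM. The direction was the same within both lists, and with a term for the list the log2 fold change of Control-AMI against Sham was 2.25 (FDR 0.000885). None of the 6 fibroblast, 6 endothelial, 5 cardiomyocyte and 3 leukocyte markers tested in fibroblasts was called in Control-AMI against Sham. Of 8 mural markers, Tagln, an actin-binding protein of smooth muscle, was higher (log2 fold change 2.45, FDR 0.000565) and the other 7 were not called.

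**Figure D2:**
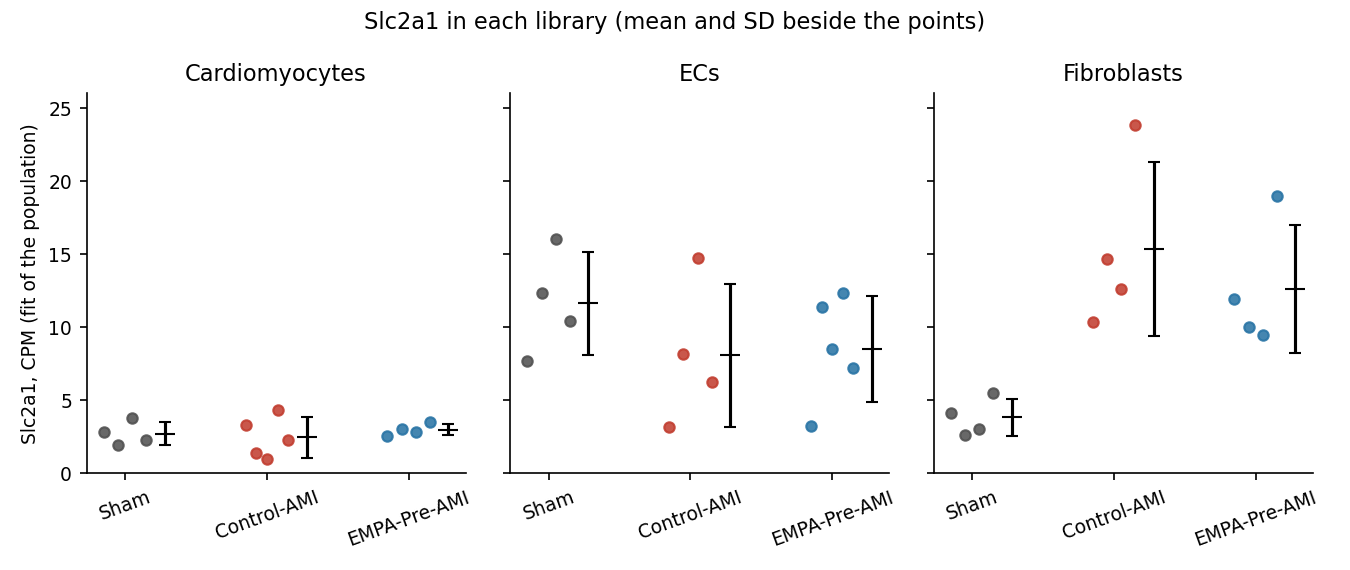
Slc2a1 (GLUT1) in CPM from the fit of each population, 1 point per library with the group mean and SD, for cardiomyocytes, ECs and fibroblasts. In fibroblasts the Control-AMI libraries lie between 10.3 and 23.9 CPM and the Sham libraries between 2.64 and 5.46 CPM, whereas in ECs and cardiomyocytes the groups overlap.

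No change of Slc2a1 was called in the other populations. In ECs the Sham libraries held 7.66, 12.4, 16.1 and 10.4 CPM (fit of the ECs), the Control-AMI libraries 3.18, 8.16, 14.7 and 6.23 CPM and the EMPA–Pre-AMI libraries 3.23, 11.4, 8.48, 12.4 and 7.18 CPM. The groups overlapped throughout. The log2 fold change of Control-AMI against Sham was -0.56 ± 0.46 (FDR 0.544), and that of EMPA–Pre-AMI against Control-AMI was 0.10 ± 0.44 (FDR 0.971). The difference between the EC and the fibroblast response to AMI was itself called, at -2.53 ± 0.59 on the log2 scale (FDR 0.0104), and was kept without any 1 library (FDR 0.00259 to 0.0406). In cardiomyocytes Slc2a1 did not pass the filter on low counts, with means of 2.70 ± 0.793 CPM in Sham, 2.45 ± 1.38 CPM in Control-AMI and 2.99 ± 0.400 CPM in EMPA–Pre-AMI (fit of the cardiomyocytes). Exact two-sided permutation tests, chosen after seeing the data, gave p between 0.468 and 0.746 there (0.652 to 0.746 adjusted over 6 such tests). The difference between the cardiomyocyte and the fibroblast response to AMI was -2.12 ± 0.61 and did not pass (FDR 0.148).

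Hk2 and Irs2 also rose in fibroblasts with AMI. Hk2, the hexokinase that traps glucose in the cell, was 83.3, 120.6, 67.7 and 69.0 CPM in Sham fibroblasts (fit of the population). It was 216.2, 250.3, 320.2 and 474.2 CPM in Control-AMI and 213.8, 178.9, 212.9 and 480.4 CPM in EMPA–Pre-AMI. The AMI groups lay above all Sham libraries, with log2 fold changes of 1.89 ± 0.33 (FDR 0.00473) and 1.67 ± 0.33 (FDR 0.00959). Irs2, a docking protein of the insulin receptor, rose from 69.1 ± 19.7 CPM to 184.1 ± 61.2 CPM in Control-AMI (log2 fold change 1.41, FDR 0.00864) and to 149.3 ± 51.7 CPM in EMPA–Pre-AMI (1.11, FDR 0.0299), the second of which was lost without Sham replicate 2 (FDR 0.0942), 3 (FDR 0.0898) or 4 (FDR 0.0973) or EMPA–Pre-AMI replicate 1 (FDR 0.0766) or 4 (FDR 0.0869).

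Hif1a, the hypoxia-inducible factor subunit that drives GLUT1 transcription in many cells, was 25.2 ± 6.75 CPM in Sham fibroblasts, 42.8 ± 3.50 CPM in Control-AMI and 54.3 ± 12.7 CPM in EMPA–Pre-AMI. Only the difference between EMPA–Pre-AMI and Sham was called (log2 fold change 1.10, FDR 0.0117; Control-AMI FDR 0.0783). Txnip, an arrestin that lowers surface GLUT1, spread from 222.1 to 791.3 CPM among Sham fibroblasts and was not called. Slc4a7, a sodium-bicarbonate carrier, rose from 36.8 ± 3.04 CPM to 80.8 ± 9.04 CPM in EMPA–Pre-AMI (1.13, FDR 0.00155). In Control-AMI it was 60.1 ± 9.60 CPM (0.71, FDR 0.0331), a call that was lost without any 1 of the 4 Sham libraries or Control-AMI replicates 1 to 3 (FDR 0.0516 to 0.125).

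By list, 1 of 6 GLUT genes tested in fibroblasts, Slc2a1, was higher than Sham with AMI, both without and with EMPA. The list's median log2 fold changes were 0.46 and 0.14, where the medians of all genes were -0.03 and -0.03. Of 5 genes of glucose trapping and GLUT1 regulation, 1 was higher with AMI alone and 2 were higher with AMI after EMPA (medians 0.17 and 0.16). Of 15 GLUT4 vesicle and insulin signal genes, 1 was higher in each (medians 0.03 and 0.06). Of 4 other sodium entry carriers, 1 was higher in each (medians 0.65 and 0.87). Of all 10691 genes tested in fibroblasts, 2.99% were higher and 1.17% lower than Sham in Control-AMI. The shares in EMPA–Pre-AMI were 3.65% higher and 1.46% lower. None of the 9 pump genes, 6 exchangers, 4 sodium channel genes and the 1 SLC5 gene tested was called, and no list gene was lower.

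Atp1b1 and Slc2a4 varied widely between fibroblast libraries of the same group. Atp1b1 was 37.2, 47.5, 76.3 and 32.1 CPM in Sham, 35.6, 72.8, 50.4 and 162.2 CPM in Control-AMI and 95.5, 66.8, 99.1 and 177.5 CPM in EMPA–Pre-AMI (fit of the fibroblasts). All but 1 EMPA–Pre-AMI library lay above all Sham libraries, and the log2 fold change of EMPA–Pre-AMI against Sham was 1.19 ± 0.46 with an FDR of 0.167. With a term for the sample list it was 1.61 and passed (FDR 0.0128). Against Control-AMI the difference was 0.45 ± 0.45 (FDR 1), and that of Control-AMI against Sham was 0.74 ± 0.46 (FDR 0.41).

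Slc2a4 in fibroblasts was 4.88, 11.9, 11.7 and 3.42 CPM in Sham, 6.90, 10.1, 4.36 and 26.8 CPM in Control-AMI and 8.30, 4.21, 15.3 and 16.5 CPM in EMPA–Pre-AMI. The groups overlapped and no contrast passed (log2 fold changes -0.12 to 0.61, FDR 0.599 to 1). Markers of mural cells, the pericytes and smooth muscle of the vessel wall, were unequal in the same libraries. The summed level of 8 mural markers was 1032, 1638, 2888 and 1427 CPM in Sham, 1386, 1466, 915 and 5959 CPM in Control-AMI and 2218, 1596, 2778 and 3232 CPM in EMPA–Pre-AMI, with no marker at 0. Control-AMI replicate 4, the highest in Atp1b1 and Slc2a4 of its group, had the highest mural sum. It was also the highest of its group in Slc2a1 (23.9 CPM), Hk2 (474.2 CPM) and Irs2 (270.8 CPM), and EMPA–Pre-AMI replicate 4, with the highest mural sum of its group, was the highest in Slc2a1 (18.96 CPM) and Hk2 (480.4 CPM). In the other groups, too, the library with the highest mural sum had the highest Atp1b1. These were Sham replicate 3 (76.3 CPM) and EMPA–Pre-AMI replicate 4 (177.5 CPM). Slc2a4 was also highest in EMPA–Pre-AMI replicate 4 (16.5 CPM), whereas Sham replicate 3 (11.7 CPM) lay just below Sham replicate 2 (11.9 CPM). For Slc2a1, Hk2 and Irs2, other libraries went the other way. Sham replicate 3 had the highest mural sum of its group but the lowest Hk2 (67.7 CPM) and Irs2 (56.4 CPM). EMPA–Pre-AMI replicate 3, with a mural sum of 2778 CPM, had the lowest Slc2a1 of its group (9.49 CPM). Irs2 in EMPA–Pre-AMI was highest in replicate 1 (200.3 CPM). Without Control-AMI replicate 4 the log2 fold change of Slc2a1 against Sham was 1.69 (FDR 0.0212), and without EMPA–Pre-AMI replicate 4 that of EMPA–Pre-AMI against Sham was 1.43 (FDR 0.0671). The part of mural cells in these levels was not tested. The fibroblast sort took CD45- CD31- CD90+ cells and used no mural marker.

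**Figure D3:**
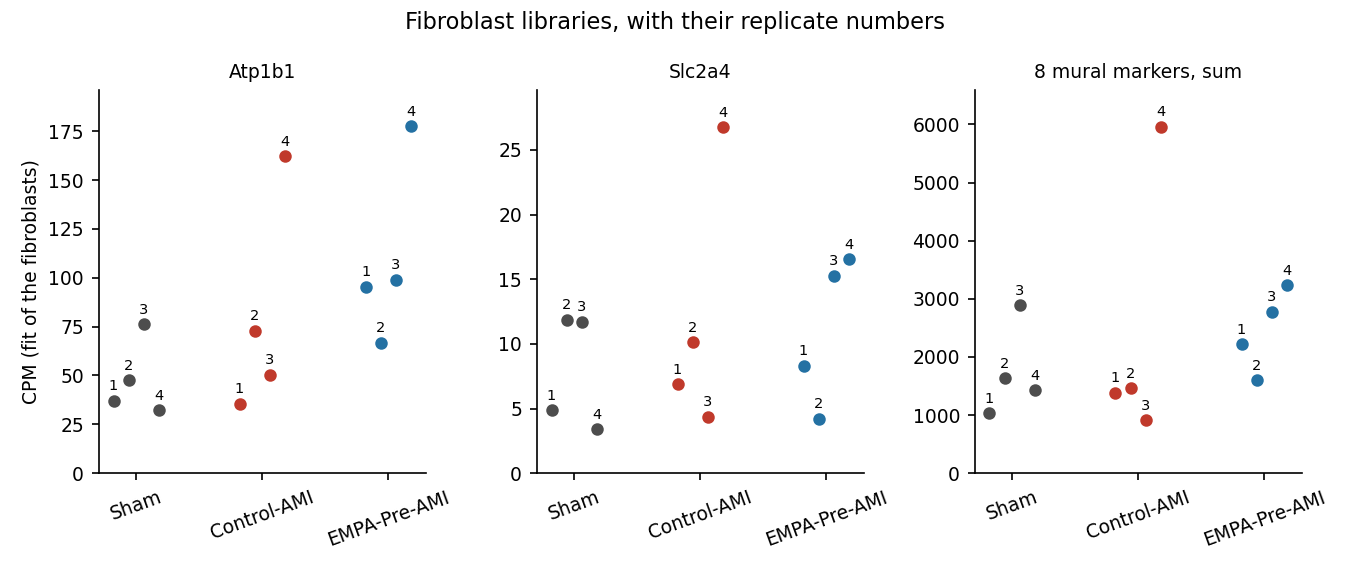
Fibroblast libraries by condition, in CPM from the fit of the fibroblasts, for Atp1b1, Slc2a4 and the summed level of 8 mural markers, 1 point per library with its replicate number. Control-AMI replicate 4 is the highest library of its group for Atp1b1 (162.2 CPM), Slc2a4 (26.8 CPM) and the mural sum (5959 CPM).

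Slc8a1 in fibroblasts overlapped between all conditions, with 36.8, 36.5, 46.8 and 33.1 CPM in Sham, 55.6, 30.4, 42.6 and 39.1 CPM in Control-AMI and 53.5, 28.9, 49.01 and 28.2 CPM in EMPA–Pre-AMI. Its log2 fold changes lay between -0.07 and 0.13 (SE 0.25, FDR 0.818 to 1), all within the spread of the replicates.

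In ECs, no member was called, and the lowest FDR belonged to Atp1b1 in EMPA–Pre-AMI against Control-AMI. Atp1b1 was 23.6, 18.5, 24.3 and 23.6 CPM in Sham ECs (fit of the ECs), 39.9, 26.8, 22.7 and 26.1 CPM in Control-AMI and 12.4, 20.0, 6.22, 16.7 and 16.2 CPM in EMPA–Pre-AMI. All 5 EMPA–Pre-AMI libraries lay below all 4 Control-AMI libraries, where 4.23% of all genes had groups that did not overlap. The means were 28.9 ± 7.56 and 14.3 ± 5.26 CPM, and the log2 fold change was -1.02 ± 0.28 with an FDR of 0.0534. Against Sham it was -0.65 ± 0.29 (FDR 0.292), and Control-AMI against Sham gave 0.37 ± 0.29 (FDR 0.521). The comparison of EMPA–Pre-AMI with Control-AMI passed with DESeq2 (FDR 0.0195) and failed by more with a term for the sample list (log2 fold change -0.90, FDR 0.722).

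Within list 2, which held 2 of the Control-AMI EC libraries and 3 of the EMPA–Pre-AMI EC libraries, Atp1b1 was 26.8 and 22.7 CPM against 12.4, 20.0 and 6.22 CPM. The labels give no EMPA–Pre-AMI library in list 4 and no Control-AMI library in list 3 for ECs, so only list 2 gives a value within a list.

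Slc8a1 in ECs was 9.43, 11.9, 12.7 and 10.4 CPM in Sham, 11.8, 8.74, 9.36 and 23.04 CPM in Control-AMI and 10.8, 6.49, 2.83, 6.18 and 4.79 CPM in EMPA–Pre-AMI. The EMPA–Pre-AMI libraries were the lowest apart from 1, and the groups overlapped. The log2 fold change of EMPA–Pre-AMI against Control-AMI was -1.07 ± 0.39 (unadjusted p of edgeR's test 0.0121, FDR 0.209), and -0.83 ± 0.40 against Sham (FDR 0.349). With a term for the sample list the first was -0.42 (FDR 0.992). Slc2a4 did not pass the filter on low counts in ECs, at 3.21 ± 2.21 CPM in Sham, 5.00 ± 3.69 CPM in Control-AMI and 1.41 ± 1.12 CPM in EMPA–Pre-AMI with 1 library at 0. Exact two-sided permutation tests, chosen after seeing the data, gave p between 0.103 and 0.4 (0.477 to 0.652 adjusted over 6 such tests). In the table as a whole, 6.56% of 10450 genes were called in ECs between Control-AMI and Sham, 2.61% between EMPA–Pre-AMI and Control-AMI and 2.71% between EMPA–Pre-AMI and Sham. Among the members, 0, 2 and 2 had an unadjusted p under 0.05, where 19.7%, 12.2% and 14.1% of all genes did. DESeq2 called 0, 1 and 0 members and 890, 343 and 423 genes.

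Marker genes of other cells moved in these EC libraries. The 6 fibroblast markers summed to between 2149 and 3301 CPM in Sham ECs (fit of the ECs). They reached 8213, 3951, 3648 and 4906 CPM in Control-AMI and lay between 2036 and 2869 CPM in EMPA–Pre-AMI, with no marker at 0. The 6 endothelial markers summed to 11831 to 13395 CPM, 6046 to 8472 CPM and 8619 to 12838 CPM in the same order. Of 6 fibroblast markers, 3 were higher in Control-AMI than Sham (Col1a1, Dcn and Thy1) and 4 were lower in EMPA–Pre-AMI than Control-AMI (Col1a1, Dcn, Lum and Thy1). Control-AMI replicate 1, which had the highest fibroblast sum, also had the highest Atp1b1, and without it the log2 fold change of Atp1b1 in EMPA–Pre-AMI against Control-AMI was -0.84 (FDR 0.335). Cardiomyocyte markers, 7 in number, summed to 265 to 992 CPM in Sham, 227 to 905 CPM in Control-AMI and 158 to 506 CPM in EMPA–Pre-AMI, with 1 or 2 at 0 in all but 1 library. The part of either cell type in the EC levels of Atp1b1 and Slc8a1 was not tested.

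**Figure D4:**
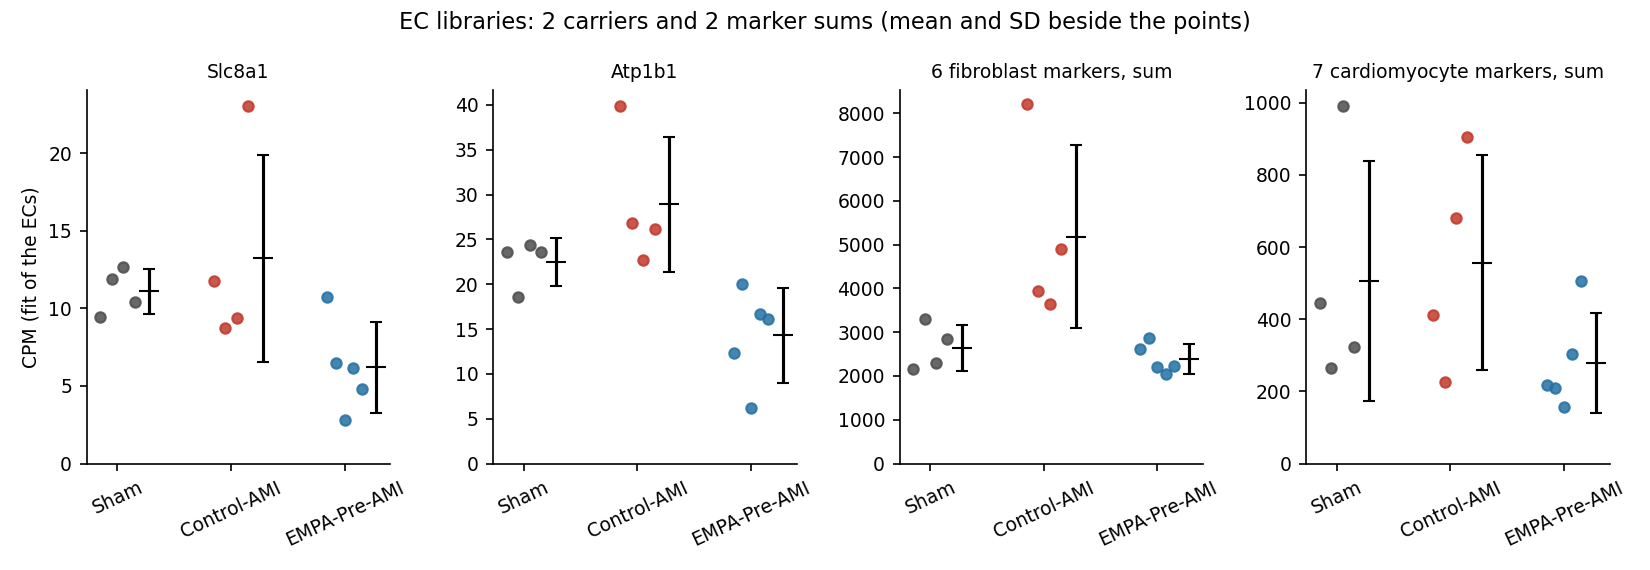
EC libraries by condition, in CPM from the fit of the ECs, for Slc8a1, Atp1b1 and the summed levels of 6 fibroblast and 7 cardiomyocyte markers, 1 point per library with the group mean and SD beside the points. Atp1b1 lies between 6.22 and 20.0 CPM in EMPA–Pre-AMI and between 22.7 and 39.9 CPM in Control-AMI, and the fibroblast sum is highest in Control-AMI, up to 8213 CPM.

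Several other sodium carriers and glucose genes were called in the EC libraries. Between Control-AMI and Sham, Hk2 rose from 4.02 ± 3.09 to 30.4 ± 16.2 CPM (log2 fold change 2.82, FDR 0.00316) and Irs2 from 5.88 ± 4.69 to 28.8 ± 8.85 CPM (2.24, FDR 0.0101). Scn7a, an atypical sodium channel, rose from 15.9 ± 10.7 to 100.03 ± 68.8 CPM (2.63, FDR 0.0116). With a term for the sample list, the calls of Scn7a (log2 fold change 1.55, FDR 0.0855) and Irs2 (1.94, FDR 0.11) were lost, and that of Scn7a was also lost in a fit of the 2 groups alone (FDR 0.077). Scn7a was at 474.4 ± 95.5 CPM in Sham fibroblasts (fit of the fibroblasts). Fxyd1, the phospholemman that regulates the pump, was called with overlapping groups (5.77 ± 2.62 and 24.6 ± 23.3 CPM; 2.07, FDR 0.0447), and the call was lost without any 1 of the 4 Sham libraries or Control-AMI replicates 1 or 4 (FDR 0.0707 to 0.261). Sort1, a sorting receptor of GLUT4 vesicles, went from 9.41 ± 1.52 to 19.7 ± 2.74 CPM (1.05, FDR 0.0496), and this call was lost without any 1 of the 8 libraries. In the alternative fits other than those leaving out a library, the Fxyd1 call was kept in 5 of 9. Its log2 fold change went down to 0.64 and its FDR up to 0.661. That of Sort1 was kept in 5 of 10 (FDR up to 0.198). On the scale of the fibroblast fit, Sham fibroblasts held Hk2 at 67.7 to 120.6 CPM and Irs2 at 56.4 to 98.4 CPM. Fxyd1 was at 94.6 to 118.4 CPM there and Sort1 at 20.3 to 30.8 CPM. The part of fibroblasts in the EC levels of these genes was not tested.

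Between EMPA–Pre-AMI and Control-AMI, Scn7a fell to 10.2 ± 1.97 CPM (log2 fold change -3.29, FDR 0.00602). Fxyd1 fell to 3.79 ± 2.12 CPM (-2.71, FDR 0.0159), Irs2 to 7.61 ± 4.99 CPM (-1.90, FDR 0.0252) and the sodium-bicarbonate carrier Slc4a4 from 18.2 ± 6.08 to 4.81 ± 4.004 CPM (-1.90, FDR 0.0417). Txnip rose from 596.4 ± 120.8 to 1006 ± 273.9 CPM (0.75, FDR 0.0179), and in Sham it was 584.4 ± 14.2 CPM (EMPA–Pre-AMI against Sham 0.78, FDR 0.0128). The latter call was lost without Sham replicate 4 (FDR 0.0557). Hk2 was 9.39 ± 3.10 CPM in EMPA–Pre-AMI, with an FDR of 0.0511 against Control-AMI. Without Control-AMI replicate 1, the library with the highest fibroblast sum, the calls of Fxyd1 (-1.85, FDR 0.126), Irs2 (-1.70, FDR 0.122), Slc4a4 (-1.65, FDR 0.241) and Txnip (0.68, FDR 0.116) were lost. Each of these 4 was also lost without at least 2 other libraries. With a term for the sample list, the call of Scn7a was lost as well (-2.23, FDR 0.0746). Sham fibroblasts held Slc4a4 at 24.6 to 53.3 CPM and Txnip at 222.1 to 791.3 CPM (fit of the fibroblasts). The part of fibroblasts in these EC differences was not tested.

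By list, ECs had 1 of 8 pump genes higher in Control-AMI against Sham and 1 lower in EMPA–Pre-AMI against Control-AMI, Fxyd1 in both. The same count held for 3 sodium channel genes, with Scn7a. Of 14 GLUT4 vesicle and insulin signal genes, 2 were higher and then 1 lower, and of 3 other sodium entry carriers none was called and then 1 was lower. Of 5 glucose trapping genes, 1 was higher in each of the 3 comparisons. Of all 10450 genes tested in ECs, 4.09% were higher in Control-AMI than Sham. In EMPA–Pre-AMI against Control-AMI, 2.27% were lower and 0.344% higher, and 2.08% were higher in EMPA–Pre-AMI than Sham. Median log2 fold changes of the pump list were 0.21 and -0.18, where those of all genes were -0.02 and 0.02. None of the 5 GLUT genes, 6 exchangers and the 1 SLC5 gene tested was called in any EC comparison.

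In cardiomyocytes, no member was called between conditions. Slc8a1 was 73.5, 58.99, 63.3 and 53.9 CPM in Sham (fit of the cardiomyocytes), 77.7, 56.8, 91.3, 50.3 and 56.2 CPM in Control-AMI and 78.8, 69.6, 88.0 and 67.6 CPM in EMPA–Pre-AMI. Atp1b1 was 247.3, 200.5, 244.5 and 244.1 CPM in Sham, with means of 216.6 ± 67.03 CPM in Control-AMI and 238.4 ± 49.8 CPM in EMPA–Pre-AMI. Slc2a4 averaged 73.7 ± 12.0 CPM in Sham, 64.9 ± 13.2 CPM in Control-AMI and 80.8 ± 27.4 CPM in EMPA–Pre-AMI. All groups overlapped.

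The 9 log2 fold changes lay between -0.18 and 0.32, with SEs of 0.19 to 0.23. The largest was Slc2a4 in EMPA–Pre-AMI against Control-AMI (0.32 ± 0.22, FDR 0.369), followed by Slc8a1 in EMPA–Pre-AMI against Sham (0.29 ± 0.21, FDR 0.466). None of the 3 members tested had an unadjusted p under 0.05 in any of the 3 comparisons, and DESeq2 called none of them. Of all genes, 2.72% had such a p in Control-AMI against Sham, 25% in EMPA–Pre-AMI against Control-AMI and 18.2% in EMPA–Pre-AMI against Sham. Few genes were called in cardiomyocytes at all: 0.0655% of 9167 genes between Control-AMI and Sham, 0.0218% between EMPA–Pre-AMI and Control-AMI and 0.338% between EMPA–Pre-AMI and Sham. No gene of the 8 lists was called by edgeR in any of these comparisons. The lowest FDR belonged to Scn7a, which was 34.6 ± 8.98 CPM in Control-AMI and 13.8 ± 8.03 CPM in EMPA–Pre-AMI (FDR 0.0571), with groups that did not overlap, as for 5.97% of all genes in this comparison. Summed fibroblast markers in these libraries were 2180 to 4011 CPM in Control-AMI and 843 to 2626 CPM in EMPA–Pre-AMI (fit of all libraries), and their part was not tested.

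**Figure D5:**
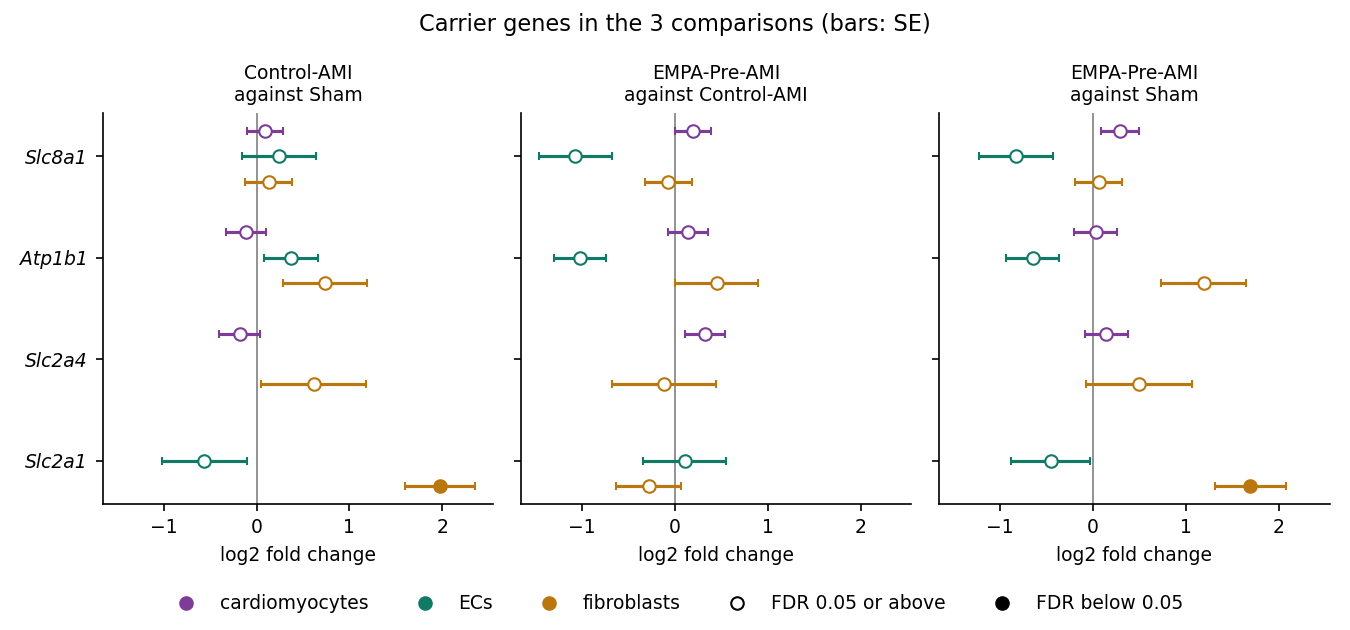
Log2 fold change of each member tested, with its standard error as bars, in the 3 comparisons within each population, with filled points for an FDR below 0.05. Slc2a1 in fibroblasts stands at 1.98 and 1.69 against Sham, Atp1b1 in ECs at -1.02 for EMPA–Pre-AMI against Control-AMI, and the cardiomyocyte values lie between -0.18 and 0.32.

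The differences between populations in the response were tested for all 4 members, again without a term for hearts shared between populations. For Control-AMI against Sham, only Slc2a1 between ECs and fibroblasts was called, where 3.22% of all genes were, and no member was called between cardiomyocytes and ECs (1.51% of all genes) or between cardiomyocytes and fibroblasts (0.331%). For EMPA–Pre-AMI against Control-AMI, none was called between cardiomyocytes and ECs (0.993%), cardiomyocytes and fibroblasts (0.00827%) or ECs and fibroblasts (2.04%). The lowest FDR belonged to Slc8a1 in cardiomyocytes against ECs (log2 difference 1.23 ± 0.40, FDR 0.115), which DESeq2 called (FDR 0.0419). Atp1b1 in ECs against fibroblasts gave -1.49 ± 0.51 (FDR 0.172), and was called without fibroblast Control-AMI replicate 4 (-2.10, FDR 0.0081). At an unadjusted p under 0.05 there were 3, 0 and 2 members in these 3 EMPA comparisons and 0, 1 and 1 in the 3 AMI comparisons, of 4 tested in each. Among all 12085 genes there were 1993, 1840 and 978 in the former and 1099, 1024 and 1544 in the latter.

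The relatives of the members were split between the populations. In the sodium pump list, Fxyd1 was higher in Sham cardiomyocytes than in Sham ECs (363.2 against 3.64 CPM, fit of all libraries), as was Atp1b1. The β3 subunit Atp1b3 was lower in cardiomyocytes (36.7 against 84.2 CPM), so the β subunits moved in opposite directions between these populations. Fibroblasts held Fxyd1 at 74.2 CPM, above ECs. In all, 4 of 9 pump genes were higher and 3 lower in cardiomyocytes than in ECs, with a median log2 difference of 1.93 where that of all genes was -0.04. Of all 12085 genes tested in this comparison, 28.1% were higher and 24.8% lower.

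Among the GLUT genes, 2 of 6 were higher in cardiomyocytes than in ECs, Slc2a4 and Slc2a8 (10.4 against 4.86 CPM), and 2 were lower, Slc2a3 (2.09 against 8.74 CPM) and Slc2a9 (1.89 against 9.86 CPM). Slc2a10 was higher in fibroblasts (12.4 CPM) than in ECs (2.55 CPM) and cardiomyocytes (4.22 CPM). Scn7a was highest in fibroblasts (320.9 CPM), against 72.6 CPM in cardiomyocytes and 10.1 CPM in ECs. Hk2 was 225.0 CPM in cardiomyocytes, 57.5 CPM in fibroblasts and 2.54 CPM in ECs. For the GLUT4 vesicle and insulin signal list, 7 of 15 genes were higher and 2 lower in cardiomyocytes than in ECs, with Akt2 at 187.3 against 25.1 CPM and the GLUT4 trafficking regulator Tbc1d4 at 82.0 against 12.4 CPM. For this list and the GLUT genes, the shares of all genes were again 28.1% higher and 24.8% lower. Among the sodium-calcium and sodium-proton exchangers, Slc9a9 was higher in cardiomyocytes than in ECs (3.19 against 0.385 CPM), as was Slc8a1.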

How the data were processed

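RNA of 38 libraries was sequenced from the 3′ end. The deposited values are estimated counts per gene that the authors made with cutadapt 2.8 and Salmon on GRCm39, and they were rounded to whole numbers here. Gene symbols and positions came from the GENCODE annotation of GRCm39. Genes with low counts were removed with filterByExpr (minimum count 10), libraries were scaled with TMM, and each population was fitted with its 3 groups by edgeR 4.0.16 (R 4.3.3) with the robust quasi-likelihood test and Benjamini-Hochberg adjustment over all genes tested. Populations were compared in 1 fit of all libraries, taken as independent, since the labels do not show which libraries came from the same hearts. No pair of libraries differed by less than sampling noise. Named genes were the members, the list genes with FDR below 0.05 or among the 3 highest of a list, and the 3 genes most correlated with a member. Some list genes just above the threshold were named after their values were seen. The members and lists were chosen with earlier results of these data known. Alternatives were DESeq2 1.42.0, other scaling and filters, a replicate block, terms for the sample-sheet list and the run of sample numbers, and leaving out each library. The test was checked on simulated data. Results of some list genes are not reported here.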

Additional observations from a re-analysis of the deposited data

Results flagged for a closer look

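Atp1b1 had 3 libraries that stood apart from the others of their group by Dixon's test at the 95% level, on the CPM scale of the fit of the population. Cardiomyocyte Sham replicate 2 held 201 CPM where the others held 244 to 247 CPM. Cardiomyocyte EMPA–Pre-AMI replicate 2 held 164 CPM where the others held 260 to 269 CPM, and EC Sham replicate 2 held 18.5 CPM where the others held 23.6 to 24.3 CPM. The test was run on 36 groups of values, and chance marks about 1 in 20.

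The response of Slc2a1 to AMI differed between ECs and fibroblasts, at -2.53 on the log2 scale (FDR 0.0104, edgeR interaction term).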

How the results depend on the processing

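The counts of members called were within 1.5 times in 332 of 346 alternatives, and no direction of a called value turned. Many of these counts were 0 in both fits, which counts as unchanged, and a drop from 4 to 3 members does as well. This share therefore says little about the members that were called. In ECs, EMPA–Pre-AMI against Control-AMI, the count went from 0 to 1 (Atp1b1) with DESeq2 (FDR 0.0195), RLE factors (FDR 0.0475), no mitochondrial genes (FDR 0.0479) and no filter on low counts (FDR 0.0229), and ranged from 0 to 1 over libraries left out. In fibroblasts against Sham, a minimum of 10 counts in every library gave 0 members for both Control-AMI and EMPA–Pre-AMI, since Slc2a1 was then not among the genes tested. EMPA–Pre-AMI against Sham gave 2 members (Atp1b1, Slc2a1) with the sample-sheet list term, where the cause was not tested, and 0 to 1 over libraries left out. The EMPA response of cardiomyocytes against ECs gave 1 member (Slc8a1) with DESeq2, and that of ECs against fibroblasts 0 to 1 over libraries left out. DESeq2 called more genes in all: 19 against 6, 880 against 2 and 201 against 31 in the cardiomyocyte comparisons, 771 against 445 and 858 against 546 in fibroblasts against Sham, and 403 against 120, 88 against 40 and 165 against 1 between population responses. Whether replicate numbers pair the libraries was not settled, since differently numbered libraries were not correlated for comparison. Among same-numbered libraries, 3 of 12 pairs in cardiomyocytes, 3 of 12 in ECs and 6 of 12 in fibroblasts correlated over 0.1. The highest correlation was 0.482, in fibroblasts. With the replicate block, Slc2a1 in fibroblasts gave 1.98 (FDR 0.00231) for Control-AMI and 1.70 (FDR 0.00669) for EMPA–Pre-AMI against Sham, the counts of members did not change, Txnip in ECs between EMPA–Pre-AMI and Sham was lost (FDR 0.0559), and the genes called in ECs between EMPA–Pre-AMI and Control-AMI went from 273 to 145. Depth limits Slc5a1 and Slc5a2.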
